A study of Mus musculus with 2 samples.

Results

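The miR-322 cluster, with the hairpins mir-322, mir-503, mir-351, mir-542, mir-450a and mir-450b, is a group of microRNAs (miRNAs) on the mouse X chromosome. Its members were chosen by name, as every arm of these hairpins in the deposited table of known mature miRNAs and without a threshold on their values. The rule found 13 mature miRNAs among 717, of which mmu-miR-322-5p, mmu-miR-322-3p, mmu-miR-503-5p, mmu-miR-351-5p and mmu-miR-542-3p are the main ones described (the prefix mmu, for mouse, is left out from here on). Small RNA was sequenced from 1 library of TAMs and 1 library of SMs, both from BALB/c mice with no gene deletion or drug named in the labels. TAMs were tumor-associated macrophages from tumors grown for 3 weeks after 4T1 cells, a mouse mammary carcinoma line, were injected into the mammary fat pad of female mice that were 8 weeks old at injection. Red blood cells were lysed in the cell suspension, and anti-CD11b magnetic beads then took up the cells. CD11b, an integrin subunit of macrophages, is also carried by monocytes, neutrophils and NK cells. SMs were macrophages from the spleen of naïve mice without a tumor. The methods describe the mice of the study as female and 6 to 8 weeks old at purchase, and do not say how the spleen macrophages were selected or how many mice gave each library. Of the sequencer, the methods say HiSeq and the series record says GAIIX.

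A miRNA finds its targets mainly through its seed, the bases near its 5′ end, and miRNAs with the same seed can act on overlapping sets of mRNAs. miR-322-5p, the mouse counterpart of human miR-424, and miR-503-5p carry the seed of the miR-15/16 family, which represses cyclins and other factors that drive cells from G1 into S phase. The cluster is known from growing and differentiating tissue, where miR-322 and miR-503 promote exit from the cell cycle in muscle precursor cells. miR-351-5p carries the seed of the miR-125 family, known in blood stem and progenitor cells, and human miR-542-3p represses survivin, an inhibitor of apoptosis.

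The sequences below are shown because the cluster members divide by seed in the results that follow. They are the mature strands with the most reads of each hairpin, and both strands of Mir503, the hairpin whose strands are compared further on. Capitals mark the seed (bases 2 to 8). All 13 members matched an entry of RefSeq (GRCm38.p6) by name, and every deposited sequence was the same as that entry.
miR-322-5p: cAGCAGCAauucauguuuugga
miR-503-5p: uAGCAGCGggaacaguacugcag
miR-503-3p: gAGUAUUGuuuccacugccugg
miR-351-5p: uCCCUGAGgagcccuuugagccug
miR-542-3p: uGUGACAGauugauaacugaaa
miR-450a-5p: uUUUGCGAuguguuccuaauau
miR-450b-5p: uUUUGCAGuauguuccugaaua
miR-322-5p and miR-503-5p share bases 2 to 7 and part at base 8. The 13 members hold 12 different seeds of bases 2 to 8, because miR-450a-1-3p and miR-450b-3p share one.

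The relatives outside the cluster are shown to make the shared seeds visible. The first 4 carry the seed of miR-322-5p and the last pair the seed of miR-351-5p.
miR-16-5p: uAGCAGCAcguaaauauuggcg
miR-15a-5p: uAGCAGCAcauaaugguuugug
miR-15b-5p: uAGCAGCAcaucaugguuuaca
miR-195a-5p: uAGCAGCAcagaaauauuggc
miR-125a-5p: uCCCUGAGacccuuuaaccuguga
miR-125b-5p: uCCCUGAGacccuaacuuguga
miR-497-5p, also a miR-15/16 relative in the table, is named only.

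The 7 hairpins lie on the minus strand of chromosome X within 6353 bases, chrX:53047997-53054349 in GRCm38. In the direction of the strand they run from Mir322 (chrX:53054255-53054349) through Mir503 (chrX:53053984-53054054), Mir351 (chrX:53053255-53053353) and Mir542 (chrX:53049403-53049487) to Mir450-2 (chrX:53048299-53048367), Mir450-1 (chrX:53048154-53048244) and Mir450b (chrX:53047997-53048078). In the GENCODE annotation none of them overlaps another gene, exon, intron or UTR. A lincRNA gene of the same strand, Gm28730, lies between Mir351 and Mir542, and the noncoding gene C430049B03Rik ends 697 bases upstream of Mir322. The nearest protein-coding genes were Plac1, 15646 bases upstream, and Hprt, 26338 bases downstream. miR-450a-5p is encoded in both Mir450-1 and Mir450-2, so that its reads cannot be divided between them. miR-450a-1-3p and miR-450b-3p share a run of 18 bases, and their low counts are uncertain, since reads could be split between them. Other members shared at most 11 bases in a row with any other miRNA of the table.

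TPM here is the count of a miRNA divided by a library total that the authors used and scaled to a common depth, with no correction for length. The TAMs total was 13324721 reads and the SMs total 15422872 reads, and known miRNAs took 55.0% of it in TAMs and 65.5% in SMs. A single read amounted to 0.0750 TPM in TAMs and 0.0648 in SMs. There were no replicates, so no difference between the groups has a test or a replicate check. Each ratio of TPM, TAMs over SMs, is given with an exact 95% interval. These intervals reflect counting error alone, and reads that are PCR copies are not independent molecules. In bulk samples, fewer cells of a type and less RNA per cell cannot be told apart. A miRNA was called different at 2-fold on TPM + 1, if it had at least 10 TPM in one of the libraries. This filter left 264 miRNAs, of which 24.2% were called higher and 32.6% lower in TAMs. Of the marker lists of cell types, the myeloid list had the highest summed TPM in both libraries, but its sum was lower in TAMs. The lists of other cells differed to unlike degrees. Most TPM of the myeloid list came from miR-142-5p, 5729 TPM in TAMs and 21578 TPM in SMs. mir-142 is a miRNA of leukocytes at large, so this list does not single out macrophages. In the epithelial list 7 of 7 miRNAs, among them miR-141-3p and miR-200b-3p, were called higher in TAMs (summed 1897 TPM in TAMs, 283.9 TPM in SMs), with 3 of them (miR-200a-3p, miR-429-3p and miR-205-5p) past the filter only through TAMs. In the red blood cell list 4 of 4, led by miR-486-5p and miR-451a, were called lower (1376 TPM in TAMs, 6022 TPM in SMs), with both arms of mir-144 past the filter only through SMs. miR-486-5p gave most of this sum, 1343 TPM in TAMs and 5355 TPM in SMs, while the ratio of miR-451a was 0.0563. Also called lower were 2 of 2 miRNAs of the lymphocyte list, miR-342-3p and miR-150-5p (1160 TPM in TAMs, 3989 TPM in SMs). Most of this sum was miR-342-3p, 1039 TPM in TAMs and 3491 TPM in SMs. In the myeloid list 4 of 4, led by miR-142-5p and miR-223-3p, were called lower as well (7752 TPM in TAMs, 34561 TPM in SMs). Of the 5 stromal miRNAs, led by miR-143-3p and miR-199a-3p, 4 passed the filter and 2 of these were called higher, miR-199a-5p only through TAMs (summed 2617 TPM in TAMs, 2452 TPM in SMs). Of the endothelial pair, miR-126-5p and miR-126-3p, 0 were called in either direction (406.4 TPM in TAMs, 342.6 TPM in SMs). Of 5 skeletal muscle miRNAs, led by miR-133a-3p and miR-133b-3p, 1 passed the filter, through TAMs only (summed 95.2 TPM in TAMs, 8.62 TPM in SMs), and miR-208b-3p was at 0 in SMs and had 3 reads in TAMs. The part of these cells in the values of the cluster was not tested.

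Together the cluster was lower in TAMs, with 6963 reads (522.6 TPM) in TAMs, against 13570 reads (879.9 TPM) in SMs, a ratio of 0.594 (0.577 to 0.611). This was 0.0949% of all miRNA reads in TAMs and 0.134% in SMs. Without miR-351-5p, its most abundant member in TAMs, the sum was 214.3 TPM in TAMs, against 634.2 TPM in SMs. This was a ratio of 0.338 (0.324 to 0.352), so the rest of the cluster was 2.96-fold lower (2.84 to 3.09) in TAMs. Without miR-322-5p, the most abundant member in SMs, the ratio was 0.768 (0.742 to 0.796), a sum made after seeing the data. Of the 13 members, 11 had a lower TPM in TAMs and 2, both arms of mir-351, a higher one. Of the 11, miR-450b-3p, at a ratio of 0.975, moved above 1 under 4 of the 5 other scalings tried. The counting interval of the ratio lay below 1 for 6 members and above 1 for miR-351-5p, and it held 1 for 5. Neither the count by direction nor that by interval was made over all miRNAs. The median ratio of TPM + 1 was itself below 1 over the 264 past the filter, at 0.782, so neither count is read as particular to the cluster. For miR-450a-2-3p, with no read in TAMs and 2 reads in SMs, no ratio is given.

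**Figure D1:**
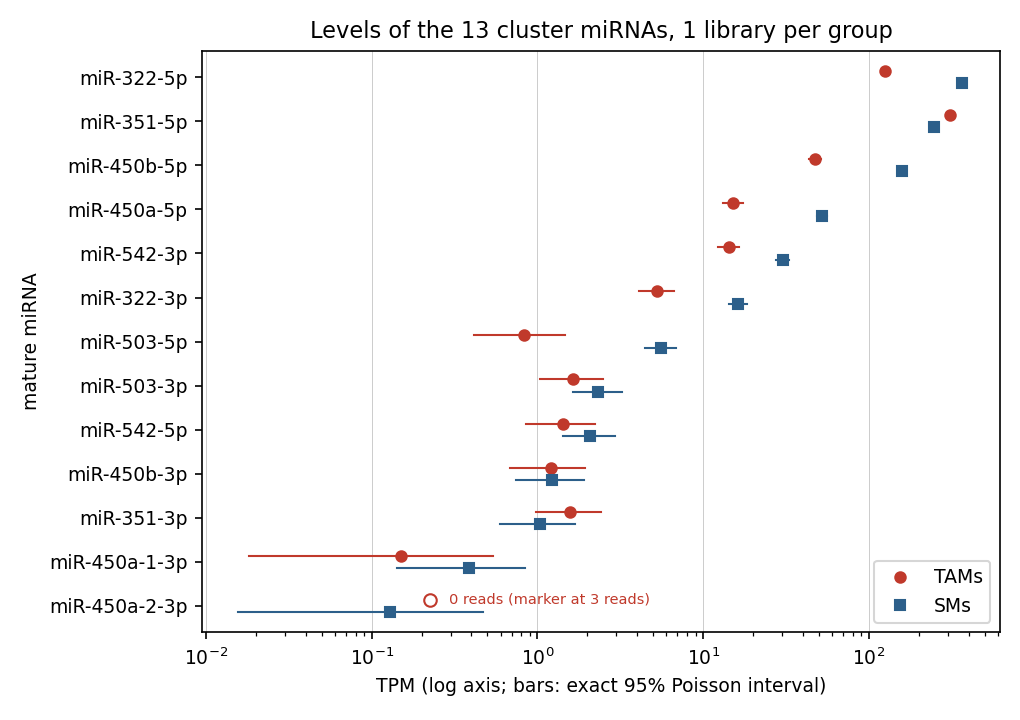
TPM (log axis) of the 13 cluster miRNAs in TAMs (red circles) and SMs (blue squares), 1 library each, with exact 95% Poisson intervals of the counts as bars. The TAMs point lies right of the SMs point for miR-351-5p, 308.2 TPM in TAMs and 245.7 in SMs, and left of it for miR-322-5p, 125.4 TPM in TAMs and 363.0 in SMs. The open circle is miR-450a-2-3p, with 0 reads in TAMs, drawn at the level of 3 reads.

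The filter of 10 TPM in TAMs or SMs was met by 6 of the 13 members. Of these, 5 had at least 10 TPM in both libraries, while miR-322-3p passed only through SMs. The other 7 stayed below 10 TPM in both. At least 2-fold higher in TAMs were 0 of the 6, where 24.2% of all 264 miRNAs past the filter were. At least 2-fold lower were 5 of the 6, where 32.6% of all 264 were. The median ratio of TPM + 1 was 0.354 over the 6 and 0.782 over the 264. With totals of known miRNA reads without the 10 most abundant, an alternative chosen after seeing the data, the median log2 ratio was -1.03 over the 6 and 0.20 over all miRNAs past the filter, which turned the direction of the median of all miRNAs but not that of the members, and 53 of 269 miRNAs were at least 2-fold lower. These 6 come from 5 hairpin groups of 1 locus and are not independent of each other.

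**Figure D2:**
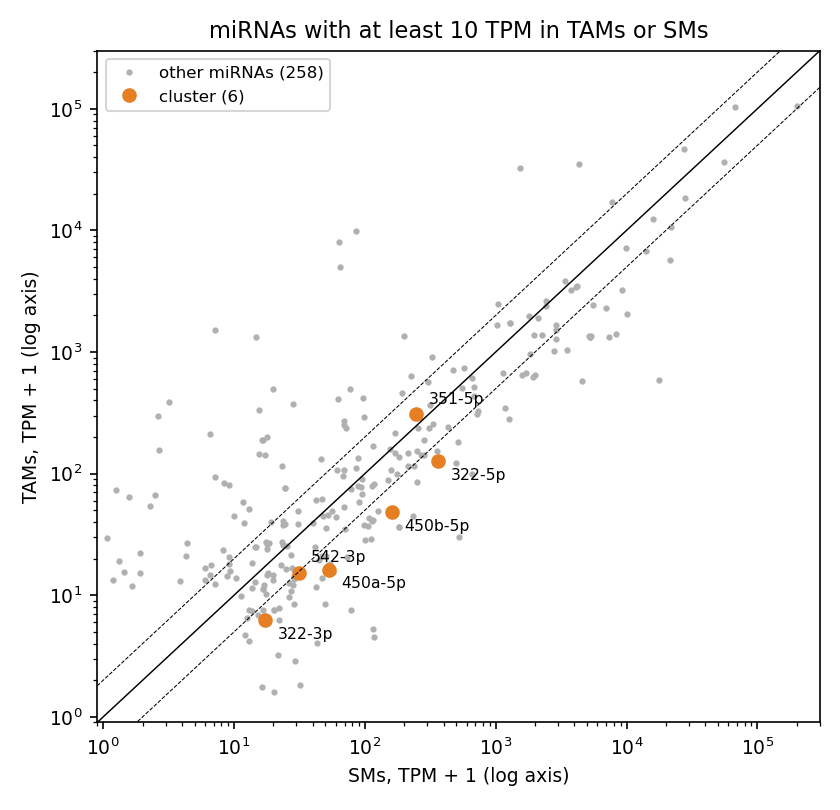
Each point is 1 of the 264 miRNAs past the filter of 10 TPM, by TPM + 1 in SMs (x, log axis) and in TAMs (y, log axis), with the cluster in orange. The solid line marks equal levels and the dashed lines 2-fold. miR-351-5p lies above the solid line, the other 5 labelled members below the lower dashed line, with miR-542-3p nearest to it.

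miR-322-5p was the most abundant member in SMs. It had 1671 reads (125.4 TPM) in TAMs, against 5599 reads (363.0 TPM) in SMs, which was 2.89-fold lower (2.74 to 3.06) in TAMs. Its rank among all miRNAs was 113 in TAMs and 67 in SMs. The other arm, miR-322-3p, had 70 reads (5.25 TPM) in TAMs, against 252 reads (16.3 TPM) in SMs, a ratio of 0.322 (0.243 to 0.421). Both arms of mir-322 were thus lower in TAMs by amounts whose intervals overlapped.

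miR-503-5p, which in other cells represses cyclin D1 with miR-322, was scarce in both libraries. It had 11 reads (0.826 TPM) in TAMs, against 86 reads (5.58 TPM) in SMs, and its ratio of 0.148 (0.0713 to 0.278) was the lowest of the 12 members with a ratio. miR-503-3p had 22 reads (1.65 TPM) in TAMs, against 36 reads (2.33 TPM) in SMs, a ratio of 0.707 (0.396 to 1.24) whose interval held 1. The arms of this hairpin therefore gave ratios with intervals that did not overlap.

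miR-351-5p was the most abundant member in TAMs and the only one of the 6 past the filter that was higher there. It had 4107 reads (308.2 TPM) in TAMs, against 3789 reads (245.7 TPM) in SMs, a ratio of 1.25 (1.20 to 1.31), below the 2-fold threshold. Its rank was 78 in TAMs and 82 in SMs. miR-351-3p had 21 reads (1.58 TPM) in TAMs, against 16 reads (1.04 TPM) in SMs, a ratio of 1.52 (0.755 to 3.11) that was not distinguishable from 1 at this depth.

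miR-542-3p, the main arm of its hairpin, had 191 reads (14.3 TPM) in TAMs, against 465 reads (30.15 TPM) in SMs, 2.10-fold lower (1.77 to 2.50) in TAMs. On the TPM + 1 scale its ratio was 0.492, just past the 2-fold threshold, and it left that call under 4 of the 5 other scalings tried. miR-542-5p had 19 reads (1.43 TPM) in TAMs, against 32 reads (2.07 TPM) in SMs, a ratio of 0.687 (0.368 to 1.25).

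The 5p arms of the miR-450 hairpins had ratios close to each other. miR-450b-5p had 630 reads (47.3 TPM) in TAMs, against 2460 reads (159.5 TPM) in SMs, 3.37-fold lower (3.09 to 3.69) in TAMs. miR-450a-5p had 203 reads (15.2 TPM) in TAMs, against 808 reads (52.4 TPM) in SMs, 3.44-fold lower (2.94 to 4.03). Their minor arms were near the limit of detection in both groups. miR-450b-3p had 16 reads (1.20 TPM) in TAMs, against 19 reads (1.23 TPM) in SMs, a ratio of 0.975 (0.469 to 2.001). miR-450a-1-3p had 2 reads (0.150 TPM) in TAMs, against 6 reads (0.389 TPM) in SMs, a ratio of 0.386 (0.0381 to 2.16). miR-450a-2-3p had no read in TAMs, which allows up to 0.225 TPM, the level of 3 reads, and 2 reads in SMs, so no difference was detectable for either.

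**Figure D3:**
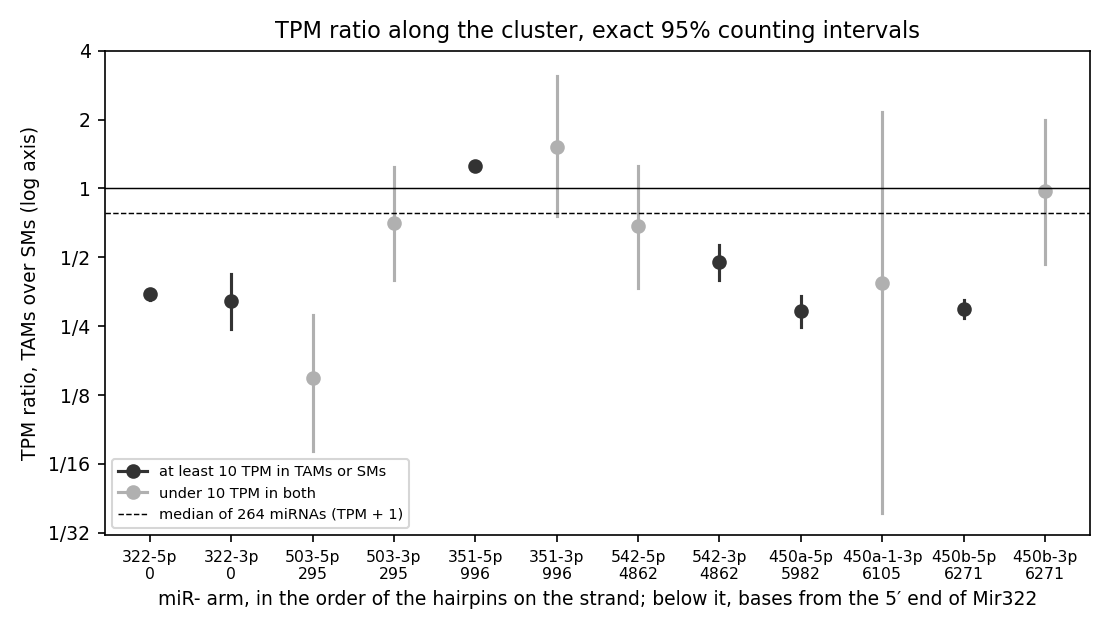
Ratio of TPM, TAMs over SMs (log axis), for the 12 members with a ratio, in the order of their hairpins along the strand, with the bases from the 5′ end of Mir322 below each name and exact 95% counting intervals as bars. Members past the filter of 10 TPM are dark, and the dashed line is the median of all 264 such miRNAs on the TPM + 1 scale, 0.782. The arms of mir-351, 996 bases along, lie above 1, and the other 10 points lie below 1 on both sides of it.

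The order of the members within a library differed between the groups. In TAMs miR-351-5p stood first, followed by miR-322-5p and miR-450b-5p, then by miR-450a-5p and miR-542-3p, whose intervals overlapped, and by miR-322-3p. In SMs miR-322-5p stood first, ahead of miR-351-5p, miR-450b-5p, miR-450a-5p, miR-542-3p, miR-322-3p and miR-503-5p, each clear of the next. Below these, neighbors in the order overlapped in both libraries. miR-503-5p, which stood clear of its neighbors in SMs, was among the overlapping members in TAMs.

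As a share of the cluster reads, miR-351-5p took 59.0% (57.8 to 60.1%, Clopper-Pearson) in TAMs and 27.9% (27.2 to 28.7%) in SMs. The share of miR-322-5p was 24.0% (23.0 to 25.0%) in TAMs and 41.3% (40.4 to 42.1%) in SMs. miR-450b-5p took 9.05% in TAMs and 18.1% in SMs, and miR-450a-5p took 2.92% in TAMs and 5.95% in SMs.

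Reads of 1 member per read of another do not depend on the library total. For each read of miR-322-5p there were 2.46 reads of miR-351-5p in TAMs and 0.677 in SMs, which was 3.63 times as many (3.38 to 3.90) in TAMs. The same quotient for miR-351-5p was 4.31 (3.67 to 5.09) against miR-450a-5p, 4.23 (3.83 to 4.68) against miR-450b-5p and 2.64 (2.21 to 3.16) against miR-542-3p. Against miR-503-5p, with few reads, it was 8.47 (4.50 to 17.6). miR-351-5p therefore gained on each of these 5 neighbors by more than counting error. The quotient of miR-322-5p was 1.19 (1.01 to 1.41) against miR-450a-5p, 1.17 (1.05 to 1.29) against miR-450b-5p and 0.727 (0.607 to 0.872) against miR-542-3p. Against miR-503-5p it was 2.33 (1.24 to 4.86). The quotient of miR-542-3p against miR-503-5p was 3.21 (1.66 to 6.82), with an interval that holds that of miR-351-5p against miR-542-3p. miR-450a-5p kept nearly the same proportion to miR-450b-5p, 0.322 reads per read in TAMs and 0.328 in SMs, a quotient of 0.981 (0.817 to 1.17).

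Within a hairpin, the share of the 5p arm is likewise free of the library total. The Mir503 hairpin (chrX:53053984-53054054, minus strand, GRCm38.p6) is printed with its 5p and 3p arms in capitals, since the read shares of its arms differed between the libraries.
Mir503: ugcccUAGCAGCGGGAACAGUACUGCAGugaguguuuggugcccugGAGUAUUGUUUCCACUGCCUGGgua
The 5p arm had 11 of 33 reads in TAMs, 33.3% (18.0 to 51.8%, Clopper-Pearson), and 86 of 122 reads in SMs, 70.5% (61.6 to 78.4%). The 5p arm thus had the smaller part of the reads in TAMs, where its interval reached just past an even split, and the larger part in SMs. The odds ratio was 0.212 (0.0833 to 0.510). Both arms together had 2.48 TPM in TAMs, against 7.91 TPM in SMs, a ratio of 0.313 (0.206 to 0.463).

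Few other hairpins showed a shift of this size. Over the 170 hairpins of the table with both arms, paired by name, and at least 30 reads in each library, the 5p share differed by a median of 1.17 points. In 7.06% of them (12 hairpins) it differed by at least 20 points. Names with numbered arms, such as miR-450a, were left out. Related names, such as miR-467a to miR-467e, were counted separately and may not be independent of each other. The shift of mir-503, which fell by 37.2 points, was behind only those of miR-467d (39.0 points) and miR-33. With 33 reads in TAMs, mir-503 stood close to the minimum of 30, so its share is among the least precise of these.

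The other hairpins kept their main arm. The 5p share was 96.0% in TAMs and 95.7% in SMs for Mir322, 99.5% in TAMs and 99.6% in SMs for Mir351, and 99.0% in both for Mir450-1 and Mir450-2 summed. Mir542, the only hairpin of the cluster led by its 3p arm in both groups, had 9.05% 5p reads in TAMs and 6.44% in SMs, an odds ratio of 1.44 (0.754 to 2.70). For Mir450b the share was 97.5% (96.0 to 98.6%) in TAMs and 99.2% (98.8 to 99.5%) in SMs, an odds ratio of 0.304 (0.147 to 0.637). This small difference rests on 16 reads of miR-450b-3p in TAMs and 19 reads in SMs, the arm that shares 18 bases with miR-450a-1-3p.

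**Figure D4:**
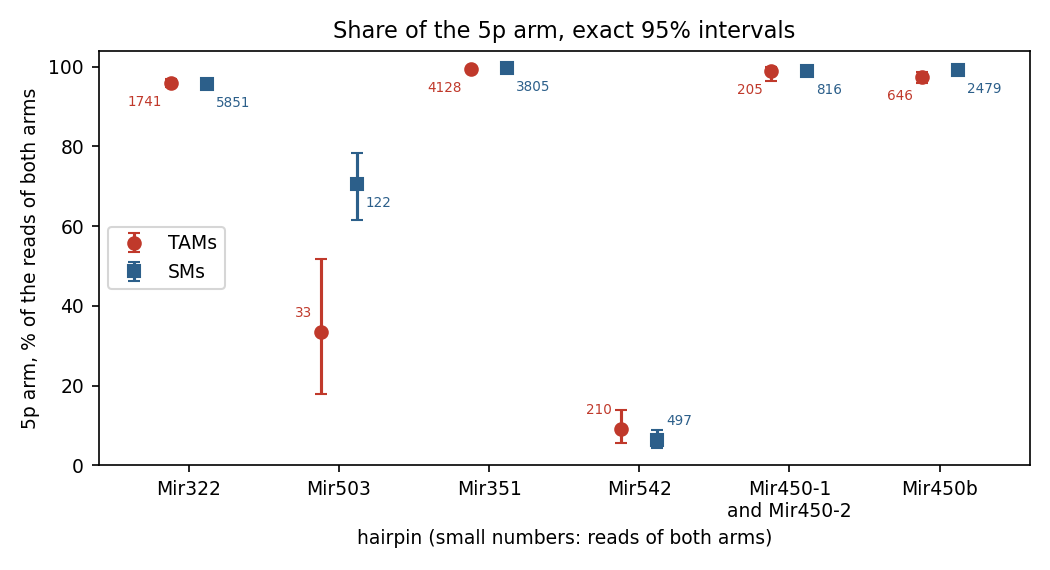
Share of the 5p arm in the reads of both arms (y, percent) for each hairpin of the cluster, in TAMs (red circles) and SMs (blue squares), with exact 95% intervals and the reads behind each share as small numbers. The groups are apart for Mir503, 33.3% in TAMs and 70.5% in SMs, and close to each other at the other hairpins.

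By seed, the cluster held a small part of the miR-15/16 family and, in SMs, most of the miR-125 family. The table holds 7 miRNAs with the bases 2 to 7 of miR-322-5p. miR-322-5p and miR-503-5p gave 1.11% (1.06 to 1.17%) of their reads in TAMs and 1.59% (1.54 to 1.63%) in SMs. The family as a whole had 11330 TPM in TAMs, against 23250 TPM in SMs, a ratio of 0.487 (0.484 to 0.490). Most of it was miR-16-5p, which restrains the cell cycle in many tissues, with 93.5% of the family reads in TAMs and 93.3% in SMs. Its level was 10589 TPM in TAMs against 21704 TPM in SMs. Its ratio of 0.488 lay above that of miR-322-5p, 0.345 (0.327 to 0.365), and so did those of miR-15a-5p (0.451) and miR-15b-5p (0.564).

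Of the remaining relatives, miR-195a-5p had 38.7 TPM in TAMs, against 18.2 TPM in SMs, a ratio of 2.13 (1.83 to 2.47). miR-497-5p, from the same cluster as miR-195a, had 6.45 TPM in TAMs, against 3.96 TPM in SMs, a ratio of 1.63 (1.16 to 2.30). The 7 miRNAs with this seed were thus not uniform: 5 had a lower TPM in TAMs, and the miR-195a and miR-497 pair a higher one.

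The seed of miR-351-5p was shared by miR-125a-5p and miR-125b-5p. miR-351-5p gave 4107 of the 26761 reads with this seed in TAMs, 15.3% (14.9 to 15.8%), and 3789 of 4417 in SMs, 85.8% (84.7 to 86.8%). Its own level was 1.25-fold higher in TAMs, while its relatives differed far more. miR-125a-5p had 373.8 TPM in TAMs, against 27.0 TPM in SMs, a ratio of 13.8 (12.5 to 15.3). miR-125b-5p had 1326 TPM in TAMs, against 13.7 TPM in SMs, a ratio of 96.9 (84.6 to 111.6). The family summed to 2008 TPM in TAMs, against 286.4 TPM in SMs, a ratio of 7.01 (6.79 to 7.24). miR-351-5p was therefore the most abundant miRNA of its seed in SMs and the least abundant of the 3 in TAMs.

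**Figure D5:**
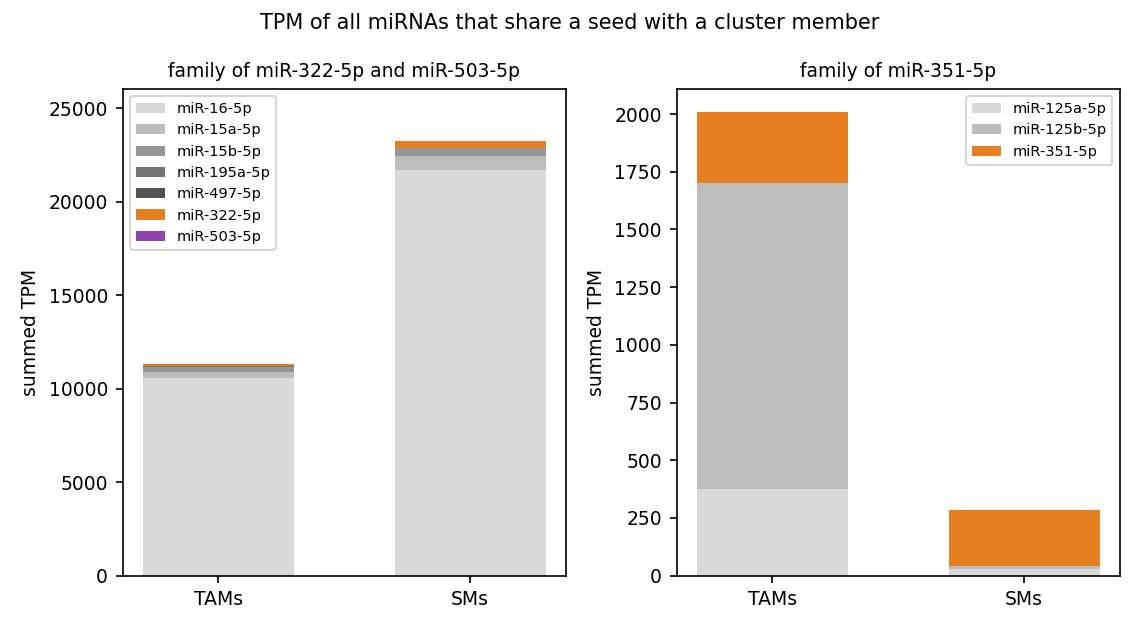
Summed TPM (y) in TAMs (left bar) and SMs (right bar) of all miRNAs that share a seed with miR-322-5p and miR-503-5p (left panel, TAMs 11330 TPM, SMs 23250 TPM) and with miR-351-5p (right panel, TAMs 2008 TPM, SMs 286.4 TPM). Cluster members are colored and stacked above the relatives, which are gray. miR-322-5p is a thin band above relatives that are mostly miR-16-5p. miR-351-5p is most of the SMs bar and a small part of the TAMs bar of its family.

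Few other miRNAs shared bases 2 to 7 with a member. miR-218-1-3p, which shares these bases but not base 8 with miR-322-3p, had 10 reads in TAMs and 0 reads in SMs. miR-5120, which shares them but not base 8 with miR-450a-2-3p, had 1 read in TAMs and 19 reads in SMs. miR-542-3p, miR-450a-5p and miR-450b-5p shared bases 2 to 8 with no other miRNA of the table. The miRNAs outside the cluster nearest to miR-322-5p in level were, by Euclidean distance of log2(TPM + 1) over the 2 libraries, miR-30e-3p (0.0629), miR-18a-5p (0.296), miR-374b-5p (0.404), miR-150-5p (0.459) and miR-106b-5p (0.478). miR-30e-3p had 125.7 TPM in TAMs, against 347.5 TPM in SMs, close to the levels of miR-322-5p in both. miR-18a-5p had 153.9 TPM in TAMs, against 353.8 TPM in SMs. With 2 libraries this likeness describes levels only.

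Other miRNAs known from growing and fetal tissue had a higher summed TPM in TAMs. In this list of 19 miRNAs, most of them from imprinted genes, 16 had a higher TPM in TAMs, against 2 of the 13 cluster members. The same count was not made over all miRNAs, so it is not read as particular to the list. Some of the 16 had few reads, such as 1 with 3 reads in TAMs and 2 in SMs, and 1 with 21 in each. The filter was passed by 3 of the 19 (miR-434-3p only through TAMs), and all 3 were called higher there, where 24.2% of all 264 were. These 3, miR-127-3p, miR-411-5p and miR-434-3p, all lie on chromosome 12 and may not be independent of each other. The list summed to 526.2 TPM in TAMs, against 126.8 TPM in SMs, a ratio of 4.15 (3.95 to 4.36). Its most abundant miRNA, miR-127-3p from the Dlk1-Dio3 region, had 414.4 TPM in TAMs, against 95.5 TPM in SMs, a ratio of 4.34. miR-411-5p, of the same region, had 38.2 TPM in TAMs, against 11.0 TPM in SMs. The summed cluster, at a ratio of 0.594 with miR-351-5p and 0.338 without it, and this list thus differed in direction in these libraries. The epithelial list named above was also higher in TAMs, and its part in these values was not tested.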

How the data were processed

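Small RNA was sequenced as 1 library of TAMs and 1 library of SMs, grouped by the sample labels. The authors matched reads to known mature mouse miRNAs and deposited a count of reads for each miRNA and library. The deposited TPM is that count scaled by a library total. The submitters' processing notes name Bowtie2. Its version, the build of the genome and the release of miRBase are each not stated in any source used here. Deposited columns of the authors' own comparison (a p-value, a ratio and a mark) were not used.

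From the deposited counts and TPM, ratios and odds ratios with exact conditional 95% intervals and Clopper-Pearson shares were computed in Python 3.11.15 (numpy 2.4.6, pandas 2.3.3, scipy 1.17.1; plots with matplotlib 3.10.9), after the calculations were tested on simulated data. Calls used log2(TPM + 1), a minimum of 10 TPM in either library and 2-fold. The pseudocount of 1 TPM understates changes of low miRNAs. Alternative scalings used edgeR 4.0.16 and DESeq2 1.42.0 in R 4.3.3, or other totals; filters, pseudocounts and thresholds were also varied. Hairpins were placed by GENCODE M21 (GRCm38).

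Named were all members, miRNAs sharing bases 2 to 7 with a member, the 5 nearest to miR-322-5p, and the 2 most abundant of each list. Other miRNAs of the marker lists, miR-434-3p, miR-467d, miR-33 and the X-linked examples were named after their values were seen. Members and lists were chosen with earlier results of these data known. With 1 library per group no test was possible.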

Additional observations from a re-analysis of the deposited data

How the results depend on the processing

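The ratio of the summed cluster stayed below 1 under every alternative run. It was 0.630 with TMM factors, 0.623 with DESeq2 size factors, 0.536 with totals from which the 10 most abundant miRNAs of each library were taken out and 0.707 with totals of known miRNA reads. It was 0.338 without miR-351-5p and 0.687 over 5 members alone, miR-322-5p, miR-322-3p, miR-503-5p, miR-351-5p and miR-542-3p. Chosen after seeing the data were totals of known miRNA reads without the 10 most abundant (0.837), the sum without miR-322-5p (0.768) and the sum without both arms of mir-351 (0.336). The 5 scalings moved the median log2 ratio of all miRNAs by 0.12, 0.07, -0.15, 0.28 and 0.56 in the order named, and multiplied every ratio by 1.06, 1.05, 0.903, 1.19 and 1.41. Of 60 ratios of single members under them, 17 left their counting interval and 0 called ratios changed direction. miR-351-5p stayed above 1, at 1.13 to 1.77. Members at least 2-fold higher were 0 throughout. Members at least 2-fold lower were 4 or 5 under the scalings, 3 with a pseudocount of 10 TPM, 2 of 3 at a minimum of 100 TPM and 0 at 4-fold. Their median log2 ratio was -1.26 with totals of known miRNA reads, -1.03 with these without the 10 most abundant, -1.05 with a pseudocount of 10 TPM and -0.34 with no filter. Over all miRNAs, 102 were higher with no filter, 53 lower with miRNA totals without the 10 most abundant, 34 were higher and 48 lower at a minimum of 100 TPM. At 4-fold 42 were higher and 22 lower. The higher share of different miRNAs was 42.7% in the report, 63.2% with miRNA totals without the 10 most abundant and 65.6% at 4-fold. Without miR-322-5p the cluster held 0.00729% of the reads of that seed in TAMs and 0.0240% in SMs.

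No paired analysis was possible because the groups hold 1 library each, and no replicate could be left out. Counts of 86 or fewer limit miR-503-5p and the minor arms of mir-503, mir-351, mir-542 and mir-450.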

Other observations

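Of 717 miRNAs 563 were placed on a chromosome by name, and 54 on chromosome X outside the cluster. Names without a match were left out, such as miR-532-5p (506.4 TPM in TAMs, 550.9 TPM in SMs), whose other arm was on X. Of the 17 placed on X outside the cluster that passed the filter, 2 passed the 2-fold threshold upward in TAMs (24.2% of all 264 did). Another 4 passed it downward (32.6% of all 264 did). Their median ratio of TPM + 1 was 0.710, against 0.782 over all 264. The higher ones, miR-221-3p and miR-222-3p, come from a shared locus and repress the cell cycle inhibitor p27. The level of miR-221-3p was 907.9 TPM in TAMs, against 324.2 TPM in SMs. That of miR-222-3p was 251.8 TPM in TAMs, against 68.8 TPM in SMs. The lower ones included both arms of the myeloid mir-223.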
